A study of Mus musculus with 6 samples.

Results

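Expression of 9 genes of serine synthesis and folate one-carbon metabolism was compared between Tyr-H and Tyr-L cells, which are sublines of the mouse melanoma line B16 with high and low tyrosinase activity. The genes were *Phgdh*, *Psat1* and *Psph* of serine synthesis, *Shmt1* and *Mthfd1* of the cytosolic folate branch, and *Shmt2*, *Mthfd2*, *Mthfd1l* and *Aldh1l2* of the mitochondrial branch. They were found by gene symbol, and all 9 were among the 20788 genes listed in at least 1 of the 6 libraries and among the 14336 genes tested. B16 comes from a melanoma of C57BL/6 mice, and both sublines were grown in low-glucose DMEM with serum and antibiotics, and no treatment is named in the labels. The study describes the sublines as subclones, grown from single colonies and sorted into the groups by their tyrosinase activity and use of tyrosine. Whether a group is 1 clone, and whether its libraries were made from separate cultures, was not given in the sources used here. All p-values therefore measure the spread between these libraries, which may be technical. Libraries made with an mRNA kit were sequenced from both ends. The values are FPKM, the fragments of a gene scaled by transcript length and by the mapped fragments of the library. This scaling does not correct for differences in composition between libraries.

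Depth was estimated from the lowest FPKM values at 18800000 to 22100000 fragments per library, with the groups overlapping, and each member then had at least 891 fragments in every library. The melanocyte markers were all listed in all 6 libraries, with a summed level of 7343 to 7660 FPKM for the Tyr-L and 5438 to 5958 FPKM for the Tyr-H libraries. The summed level of the 6 leukocyte markers was at most 0.445 FPKM, and *Ptprc*, *Adgre1*, *Csf1r* and *Cd3e* were not listed in any library. The mean level of *Tyr* itself was 10.0 ± 0.602 FPKM in the low-activity and 21.3 ± 2.14 FPKM in the high-activity subline (SD, n = 3 each), which goes with the labels. The summed level of the melanocyte markers, *Tyr* among them, went the other way and was lower in the Tyr-H libraries. *mt-Co1*, the most abundant transcript, took 2.05% to 2.15% of the total FPKM in Tyr-L and 4.24% to 4.33% in Tyr-H libraries. Over all tested genes the median log2 change, the log2 of the fold change of Tyr-H over Tyr-L, stood at -0.15 with the values as deposited and at -0.01 once libraries were scaled by median ratios or quantile normalized, so the decreases of members are given below under these scalings too.

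Serine is made from the glycolytic intermediate 3-phosphoglycerate in 3 steps, by PHGDH, PSAT1 and PSPH. Serine hydroxymethyltransferase then splits it into glycine and a one-carbon unit carried by tetrahydrofolate, in the cytosol by SHMT1 and in mitochondria by SHMT2. In mitochondria the unit is oxidized by MTHFD2 and either released as formate by MTHFD1L or oxidized to carbon dioxide by ALDH1L2, which yields NADPH. Formate that leaves the mitochondria is attached to folate again by the cytosolic trifunctional enzyme MTHFD1, for purine and thymidylate synthesis, and the cytosolic enzymes can also run in reverse. Many of these genes are known targets of the stress-responsive transcription factor ATF4, and tumors and dividing cells often express the mitochondrial enzymes strongly.

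The 3 serine synthesis genes and 3 of the 4 mitochondrial genes were expressed higher in Tyr-H cells, and the 2 cytosolic genes were not. Of the 9 genes, 4 were called higher in Tyr-H cells, that is at an adjusted p of at most 0.05 from limma and a log2 change of at least 1 in size. These were *Psph*, *Shmt2*, *Mthfd2* and *Aldh1l2*, against 2.96% of all tested genes called higher. None was called lower, against 5.78% of all tested genes. At the adjusted p alone, 6 genes were higher, where 17.9% of all tested genes were, and 2 were lower, *Shmt1* and *Mthfd1*, where 39.9% were. The 3 Tyr-H and the 3 Tyr-L libraries did not overlap in 8 of the 9 genes, higher in 6 (20.2% of all tested genes) and lower in 2 (43.8%). For each of these 8 the two-sided exact permutation p was 0.1, the smallest p it can give. The median log2 change was 0.87 over the 9 genes, 0.87 over the 3 serine genes, 1.37 over the 4 mitochondrial genes and -0.31 over the 2 cytosolic genes, beside -0.15 over all tested genes.

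**Figure D1:**
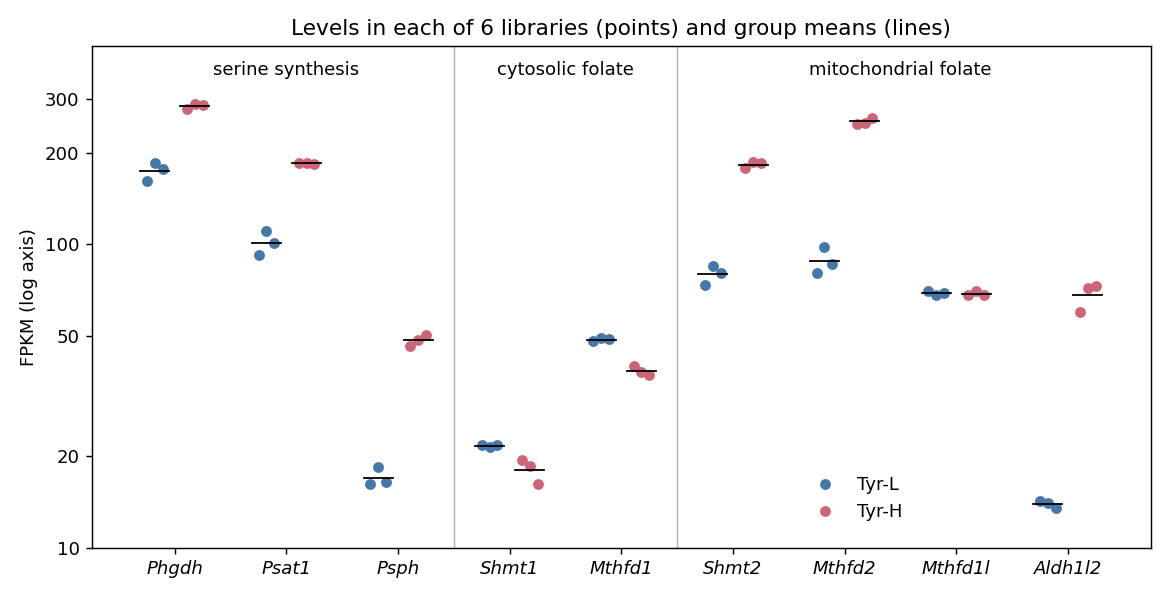
Level of each of the 9 genes in FPKM on a log axis. Points are single libraries (3 Tyr-L in blue, 3 Tyr-H in red) and lines are group means. The Tyr-H points lie above the Tyr-L points for 6 genes, below them for *Shmt1* and *Mthfd1*, and among them for *Mthfd1l*.

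All 3 genes of serine synthesis were higher in Tyr-H cells, and the difference grew along the pathway. *Phgdh* (ENSMUSG00000053398, minus strand of chromosome 3, 98313170 to 98339990 in GRCm38), whose product takes the first step, stood at 162, 185 and 177 FPKM across Tyr-L libraries 1, 2 and 3, and at 278, 289 and 288 FPKM across the Tyr-H libraries. It was the most abundant of the 9 genes in both groups. Its mean of 175 ± 11.8 FPKM in Tyr-L rose 1.63-fold to 285 ± 5.98 FPKM (SD, n = 3 each). The log2 change of 0.71 ± 0.05 (SE) passed the adjusted p (3.4e-06 from limma) and was under the threshold for a call. *Psat1* (ENSMUSG00000024640, minus strand of chromosome 19, 15904678 to 15947337), the transaminase of the second step, stood at 92.4, 111 and 101 FPKM across the Tyr-L and at 185, 186 and 183 FPKM across the Tyr-H libraries. The SD was 1.09 FPKM over the Tyr-H and 9.1 FPKM over the Tyr-L libraries, and the groups did not overlap. Its log2 change was 0.87 ± 0.06 (SE, adjusted p 2.7e-06), and median ratio scaling raised it to 1.02, past the threshold. *Psph* (ENSMUSG00000029446, minus strand of chromosome 5, 129765558 to 129787449), the phosphatase of the last step, stood at 16.2, 18.4 and 16.4 FPKM across the Tyr-L and at 46.2, 48.2 and 50.2 FPKM across the Tyr-H libraries. This is a 2.83-fold rise in the gene with the lowest level of the pathway (log2 change 1.50 ± 0.06 SE, adjusted p 2.2e-07). *Psph* shares 452 exonic bases with *Cct6a* on the opposite strand, and since strand-specific counting was not stated, its level is uncertain to that extent. *Cct6a* moved the other way, from 185 ± 2.44 to 169 ± 3.4 FPKM (SD, n = 3 each).

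Relative to *Phgdh* in the same library, *Psph* stood at a log2 ratio of -3.31, -3.32 and -3.42 in Tyr-L and -2.59, -2.58 and -2.52 in Tyr-H libraries. The ratio did not overlap between the groups and was 1.73 times higher in Tyr-H cells (difference 0.79, standard error 0.04). For *Psat1* over *Phgdh* the difference was 0.16 (standard error 0.03), again without overlap. The 3 genes of this linear pathway were thus raised unequally, whatever factor each library is multiplied by.

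The promoters of *Phgdh* and *Psph* are shown because they were the ones among the 9 genes to hold a match to any of the 3 response elements searched. RefSeq promoters of GRCm38.p6 (250 bases before to 50 after a gene's start, 32851 in all) were matched by symbol for 8 of the 9 genes, with 2 starts for *Psat1*. *Aldh1l2* was not matched. The core of the antioxidant element, TGACNNNGC on either strand, was found in *Phgdh* and *Psph* and in 12.4% of all promoters. In *Phgdh* it lies on the opposite strand at bases -53 to -45 from the start, in capitals in the 250 bases before the start (chr3:98339970-98340219, minus strand).
Phgdh: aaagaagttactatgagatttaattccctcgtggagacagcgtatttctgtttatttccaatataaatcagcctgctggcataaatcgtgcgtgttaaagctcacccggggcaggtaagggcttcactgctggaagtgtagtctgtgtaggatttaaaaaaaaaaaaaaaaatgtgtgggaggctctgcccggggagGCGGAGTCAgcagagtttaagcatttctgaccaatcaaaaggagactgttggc
In *Psph* it lies on the opposite strand at bases 5 to 13 after the start, in capitals in the 30 bases around it (chr5:129787230-129787259, minus strand).
Psph: acgcccagttGCGACGTCAttgcgcatctg
The core that ATF4 binds together with C/EBP factors, TGATGNAA, was in none of the 9 windows and in 3.97% of all promoters, and the E-box CACGTG was in none and in 7.15% of all. These letters were searched in this window alone, and a match or its absence is a description of the sequence.

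The cytosolic folate genes were slightly lower in Tyr-H cells. *Mthfd1* (ENSMUSG00000021048, plus strand of chromosome 12, 76255298 to 76319803) stood at 47.8, 49.0 and 48.6 FPKM across the Tyr-L and at 39.5, 37.8 and 37.2 FPKM across the Tyr-H libraries. Every Tyr-H library was below every Tyr-L library by more than the spread within either group. Its log2 change of -0.34 ± 0.04 (SE, adjusted p 4.5e-05) became -0.19 after median ratio scaling (adjusted p = 0.0026 from limma) and -0.25 after quantile normalization (adjusted p = 0.00047). *Shmt1* (ENSMUSG00000020534, minus strand of chromosome 11, 60788104 to 60811718) stood at 21.8, 21.5 and 21.9 FPKM across the Tyr-L and at 19.4, 18.6 and 16.2 FPKM across the Tyr-H libraries. Tyr-H library 3 was the lowest, and without it the log2 change moved from -0.27 ± 0.07 (SE, adjusted p 0.0063) to -0.19 (adjusted p = 0.0083). The decrease of *Shmt1* depended on the scaling, since its log2 change was -0.12 after median ratio scaling (adjusted p = 0.17) and -0.15 after quantile normalization (adjusted p = 0.08). *Shmt1* shares 184 exonic bases with *Smcr8* on the opposite strand, which itself fell by 0.60 on the log2 scale, and its values are uncertain to that extent.

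In the mitochondrial branch 3 of the 4 genes were called higher and the groups overlapped in the other. *Shmt2* (ENSMUSG00000025403, minus strand of chromosome 10, 127517123 to 127522444) stood at 73.1, 84.8 and 80.5 FPKM across the Tyr-L and at 178, 186 and 185 FPKM across the Tyr-H libraries, a log2 change of 1.20 ± 0.05 (SE, adjusted p 3.4e-07). *Mthfd2* (ENSMUSG00000005667, minus strand of chromosome 6, 83305691 to 83325908) stood at 80.4, 97.6 and 86.1 FPKM across the Tyr-L and at 249, 252 and 261 FPKM across the Tyr-H libraries, a log2 change of 1.53 ± 0.06 (SE, adjusted p 2.7e-07). Both genes were thus raised between 2.30-fold and 2.89-fold at a high level, with the groups far apart compared with their spread. *Aldh1l2* (ENSMUSG00000020256, minus strand of chromosome 10, 83487450 to 83534140) stood at 14.2, 14.0 and 13.5 FPKM across the Tyr-L and at 59.7, 71.6 and 73.1 FPKM across the Tyr-H libraries. This was the largest change of the 9 genes, 4.90-fold in the means and 2.28 on the log2 scale (standard error 0.07, adjusted p = 8.2e-08), and rank 58 of the 14336 tested genes from the highest log2 change down. *Aldh1l2* shares 1056 exonic bases with *D10Wsu102e* on the opposite strand, whose level was at most 0.731 FPKM in any library. The overlaps of *Shmt2* with *Ndufa4l2* (32 bases) and of *Mthfd1* with *Gm47525* (37 bases) involve genes at 0.114 FPKM or less.

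*Mthfd1l* (ENSMUSG00000040675, plus strand of chromosome 10, 3973118 to 4167081), which encodes the mitochondrial enzyme that releases formate, stood at 70.0, 67.9 and 68.9 FPKM across the Tyr-L and at 68.1, 70.1 and 67.8 FPKM across the Tyr-H libraries. The groups overlapped, with means of 68.9 ± 1.03 and 68.7 ± 1.24 FPKM (SD, n = 3 each). Its log2 change was -0.00 ± 0.03 (SE, adjusted p 0.9), and the 95% interval ran from -0.08 to 0.07, so a change as large as that of the other mitochondrial genes lay outside it. After median ratio scaling it was 0.15 (adjusted p = 0.0029 from limma), a small increase that passed the adjusted p, and after rescaling to equal totals -0.10 (adjusted p = 0.0522). Within the mitochondrial branch, the log2 ratio of *Aldh1l2* to *Mthfd1l* was -2.29, -2.27 and -2.34 in Tyr-L and -0.19, 0.03 and 0.11 in Tyr-H libraries. The enzymes that compete for mitochondrial formyl-tetrahydrofolate thus had transcripts at about the same level in Tyr-H cells, and the ratio was 4.87 times that of Tyr-L cells (difference 2.28, standard error 0.09).

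**Figure D2:**
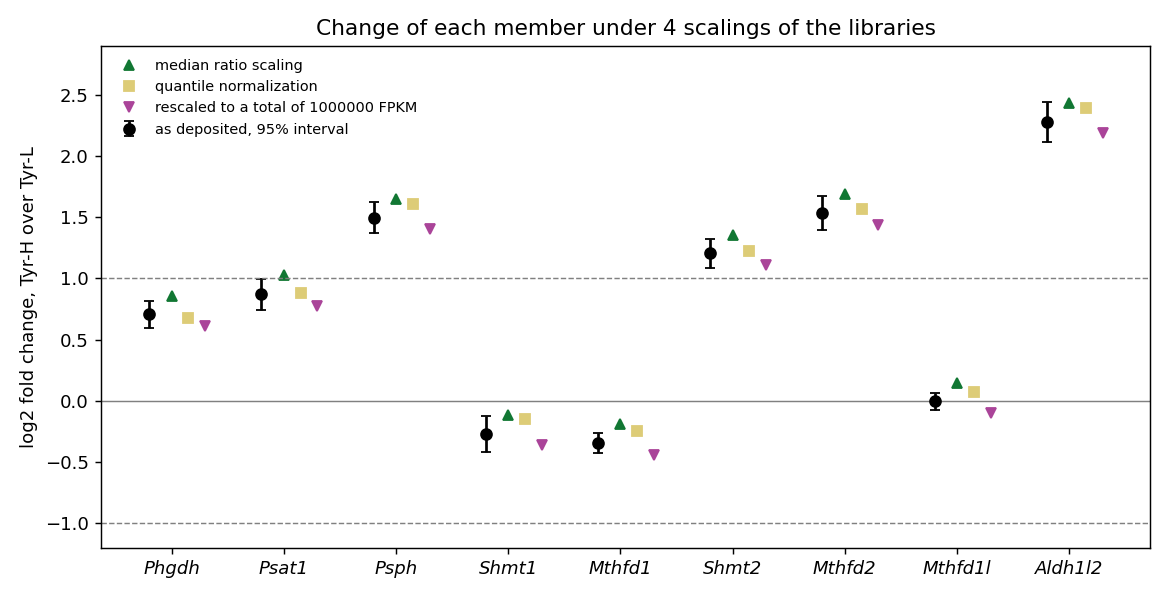
Log2 change of Tyr-H over Tyr-L cells for each of the 9 genes. Black points with bars are the deposited values with their 95% interval from limma, and the other symbols are the same change after 3 scalings of the libraries. Dashed lines mark the threshold for a call. *Psat1* crosses it after median ratio scaling (1.02), and *Mthfd1l* changes sign between scalings, from -0.10 to 0.15.

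The windows before the RefSeq starts of *Shmt2* and *Shmt1*, the isozyme genes that moved apart, and of *Mthfd2* are shown for comparison, with the CCAAT box in capitals on either strand. This motif was added after the sequences had been read. It was found in 6 of the 8 genes with a promoter (*Phgdh*, *Psat1*, *Psph*, *Shmt1*, *Mthfd1* and *Mthfd2*) and in 37.4% of all promoters, and not in *Shmt2* or *Mthfd1l*, so it did not separate the genes that were higher in Tyr-H cells from the others. The *Mthfd2* window (chr6:83317605-83317854, minus strand) held 3 copies, *Shmt1* (chr11:60811266-60811515, minus strand) held 1 and *Shmt2* (chr10:127522445-127522694, minus strand) held none. The *Mthfd2* and *Shmt1* windows lie inside the gene spans given above, whose ends differ from the RefSeq starts.
Mthfd2: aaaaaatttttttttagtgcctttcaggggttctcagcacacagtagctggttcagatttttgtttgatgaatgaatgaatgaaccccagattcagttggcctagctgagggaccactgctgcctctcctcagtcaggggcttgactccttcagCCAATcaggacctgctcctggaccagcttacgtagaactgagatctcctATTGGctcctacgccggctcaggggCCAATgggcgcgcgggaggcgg
Shmt1: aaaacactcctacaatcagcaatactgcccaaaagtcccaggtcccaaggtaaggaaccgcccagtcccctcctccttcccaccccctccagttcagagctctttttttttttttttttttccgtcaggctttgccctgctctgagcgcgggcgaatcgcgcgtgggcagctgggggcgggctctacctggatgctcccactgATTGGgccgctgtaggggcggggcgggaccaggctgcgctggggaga
Shmt2: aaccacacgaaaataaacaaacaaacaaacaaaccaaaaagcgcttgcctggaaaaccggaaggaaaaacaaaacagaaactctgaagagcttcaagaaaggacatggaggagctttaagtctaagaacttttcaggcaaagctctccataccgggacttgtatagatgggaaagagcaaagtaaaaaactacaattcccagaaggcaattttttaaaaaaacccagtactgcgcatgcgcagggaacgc
The full windows also differed in composition, with 42.7% G and C in *Shmt2*, 60.7% in *Shmt1* and 55.7% in *Mthfd2*.

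Whether the branches changed unequally was tested on the log2 ratio of a mitochondrial to a cytosolic gene within each library, a quantity that 1 factor per library leaves unchanged but for the pseudocount, and that quantile normalization can move. The ratio was higher in every Tyr-H library than in every Tyr-L library for all 8 pairs of the 4 mitochondrial with the 2 cytosolic genes (exact permutation test, two-sided, p = 0.1 for each and 0.1 after Benjamini-Hochberg adjustment over the 8 pairs, the smallest p of 3 against 3). These pairs share genes and are not independent of each other. The share of all gene pairs that separate in this way was not computed. Among single genes 20.2% of all tested genes were higher and 43.8% lower without overlap. In the pairs of *Mthfd1l* the groups overlapped in *Mthfd1l* itself, and the cytosolic genes were lower. For *Shmt2* over *Shmt1* the log2 ratio was 1.74, 1.98 and 1.88 in Tyr-L and 3.19, 3.32 and 3.51 in Tyr-H libraries, a difference of 1.47 (standard error 0.12). In FPKM, *Shmt2* was 3.66 times the level of *Shmt1* in Tyr-L and 10.1 times in Tyr-H cells. For *Mthfd2* over *Mthfd1*, which catalyze the same oxidation in the 2 compartments, it was 0.75, 0.99 and 0.82 in Tyr-L and 2.65, 2.73 and 2.81 in Tyr-H libraries, a difference of 1.88 (standard error 0.09). *Aldh1l2* over *Mthfd1* showed the largest difference, 2.62 (standard error 0.12), and turned from below 0 in Tyr-L to above 0 in Tyr-H libraries. The smallest differences were those of *Mthfd1l*, 0.26 over *Shmt1* (standard error 0.08) and 0.34 over *Mthfd1* (standard error 0.04). Within the cytosol the ratio of *Mthfd1* to *Shmt1* overlapped between the groups, with a difference of -0.08 (standard error 0.06).

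**Figure D3:**
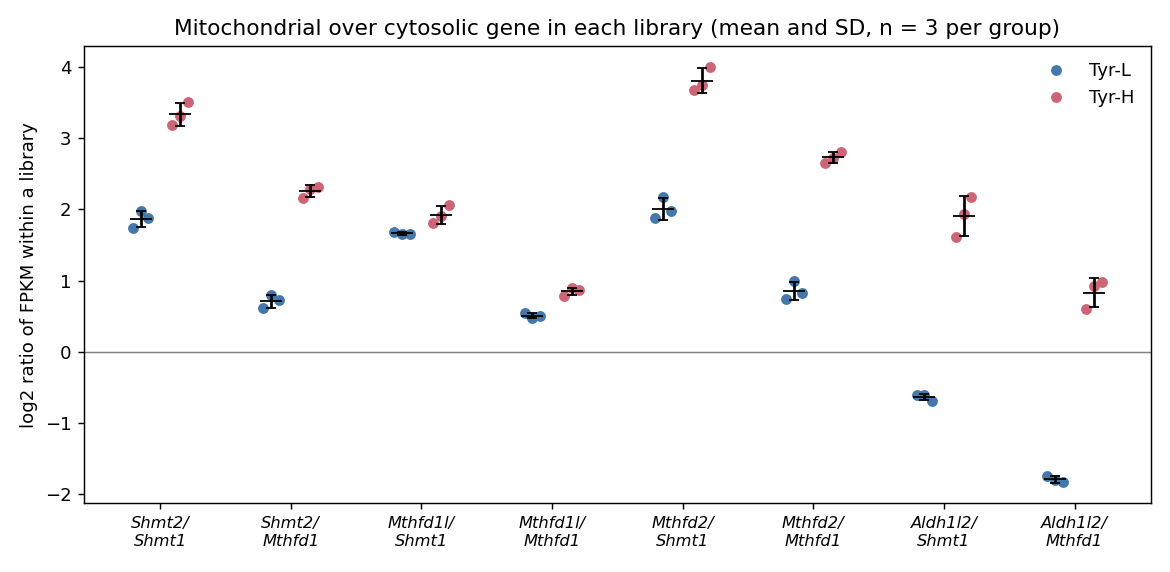
Log2 ratio of the FPKM of a mitochondrial to a cytosolic gene within each library, for the 8 pairs. Points are libraries (Tyr-L in blue, Tyr-H in red), black marks and bars are the mean and SD of 3 libraries. All 3 red points lie above the blue points in each pair, by 0.26 to 2.62 between the means.

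The order of the levels changed with the branches. In Tyr-L cells it ran *Phgdh*, *Psat1*, *Mthfd2*, *Shmt2*, *Mthfd1l*, *Mthfd1*, *Shmt1*, *Psph* and *Aldh1l2* from the highest mean FPKM to the lowest, and the libraries of *Psat1* and *Mthfd2* and of *Mthfd2* and *Shmt2* overlapped. In Tyr-H cells it ran *Phgdh*, *Mthfd2*, *Psat1*, *Shmt2*, *Mthfd1l*, *Aldh1l2*, *Psph*, *Mthfd1* and *Shmt1*, and *Psat1* overlapped *Shmt2* as *Mthfd1l* overlapped *Aldh1l2*. *Aldh1l2* and *Psph* had thus passed both cytosolic genes. The mitochondrial genes made up 77.3%, 79.0% and 77.9% of the summed FPKM of the 6 folate genes in the Tyr-L libraries and 90.4%, 91.1% and 91.7% in the Tyr-H libraries. The 9 genes together took 0.127% to 0.144% of the total FPKM in Tyr-L and 0.235% to 0.242% in Tyr-H libraries.

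The isozymes outside the 9 genes did not share the increase of their counterparts to the same extent. *Aldh1l1*, the cytosolic counterpart of *Aldh1l2*, averaged 13.8 ± 0.703 FPKM (Tyr-L) and 12.6 ± 0.707 FPKM (Tyr-H) as the mean and SD of 3 libraries, with an adjusted p of 0.11 from limma for a log2 change of -0.12. The 2 isozymes were therefore at about the same level in Tyr-L cells, a ratio of 1.01, and *Aldh1l2* was 5.39 times higher than *Aldh1l1* in Tyr-H cells. *Mthfd2l*, the second mitochondrial dehydrogenase, rose from 1.45 ± 0.0921 to 2.33 ± 0.259 FPKM as the mean and SD of 3 libraries, with an adjusted p of 0.0019 for a log2 change of 0.65, and *Mthfd2* stood above it 60.8 times in Tyr-L and 109 times in Tyr-H cells.

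Among 3 lists of surrounding folate genes 1 gene was called, beside 2.96% of all tested genes called higher and 5.78% lower. Of 8 other folate enzymes, most of them cytosolic, 7 were tested and none was called in either direction. At the adjusted p alone 1 was higher (*Ggh*) and 3 were lower, where 17.9% and 39.9% of all tested genes were. The median log2 change of this list was -0.12. Among the lower genes were *Tyms*, which makes thymidylate (log2 change -0.57), and *Fpgs*, which retains folate in the cell (log2 change -0.30). After median ratio scaling 2 genes of this list were lower at the adjusted p and its median was 0.03. After rescaling to equal totals 5 were lower and the median was -0.22. Of 4 tested folate transporters none was called, *Slc46a1* was lower at the adjusted p alone (log2 change -0.45) with overlapping groups, and the mitochondrial folate carrier *Slc25a32* had 8.22 ± 0.577 and 7.55 ± 0.106 FPKM (SD, n = 3 each; adjusted p = 0.16). The number of transporters lower was 0 after median ratio scaling or quantile normalization, with no filter or no variance trend, and without Tyr-L library 2 or 3 or Tyr-H library 1 or 3. It was 2 after rescaling to equal totals. Of 8 tested genes of mitochondrial folate use, serine import and glycine cleavage, 4 were higher and 3 lower at the adjusted p, beside the same 17.9% and 39.9% of all tested genes. The median log2 change of this list was 0.04, and it was 0.19 after median ratio scaling, where 2 genes were lower at the adjusted p, as after quantile normalization, and -0.06 after rescaling to equal totals. Among them *Sfxn1*, a mitochondrial serine transporter, fell by 0.32 on the log2 scale and its paralog *Sfxn3* rose by 0.55. *Amt*, a subunit of the glycine cleavage system, was called lower at a low level (0.56 ± 0.128 to 0.222 ± 0.0443 FPKM, SD, n = 3 each, log2 change -1.03), and this call rested on the setting and on single libraries. The list had 0 calls after median ratio scaling or quantile normalization, with a pseudocount of 1 FPKM, and without Tyr-L library 1, Tyr-L library 2 or Tyr-H library 3. *Gldc*, the decarboxylase of that system, was under the filter and was listed in 3 of the 6 libraries.

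ATF4 and its known targets outside the pathway were higher as well. Of 17 such genes 16 were tested. *Fgf21* was at 0 throughout Tyr-L and passed the filter through the Tyr-H libraries alone, so it had to differ and its fitted change depends on the pseudocount. The other 15 were called higher, beside 2.96% of all tested genes, with a median log2 change of 1.86 (1.88 with *Fgf21*). With *Fgf21*, 16 were called after each of the 3 scalings of the libraries. This list was chosen with earlier results of these data in view, and its count is given as a description. *Atf4* stood at 124, 144 and 129 FPKM across the Tyr-L and at 285, 325 and 325 FPKM across the Tyr-H libraries (log2 change 1.24 ± 0.07 SE, adjusted p 9.6e-07 from limma). The largest changes were those of *Trib3*, a pseudokinase that restrains ATF4 (log2 change 3.61), *Nupr1*, a stress-induced nuclear protein (3.14), and *Vldlr*, a lipoprotein receptor (3.06). *Aldh1l2*, at 2.28, lay within the range of this list, 1.20 to 3.61, and so did *Mthfd2* and *Psph*. *Shmt2* stood at the lower end of the range, at 1.204 beside 1.203 for *Sesn2*. *Psat1* and *Phgdh* lay below the range, as did *Mthfd1l*, *Shmt1* and *Mthfd1*. Of 7 tested MYC and NRF2 regulators and NRF2 targets, *Hmox1*, which degrades heme, was called higher (log2 change 1.96) and 4 genes were lower at the adjusted p, where 39.9% of all tested genes were, *Myc* among them (log2 change -0.30), with a list median of -0.11. After median ratio scaling 1 gene of this list was lower and the median was 0.04. *Gclm* and *Nqo1*, common NRF2 targets, had log2 changes of 0.10 and -0.08 (adjusted p = 0.45 and 0.3 from limma).

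The 13 proliferation genes, which often go with one-carbon genes, were all lower in Tyr-H cells at the adjusted p, where 39.9% of all tested genes were, with a median log2 change of -0.50. After median ratio scaling 11 of the 13 were lower, beside 3865 of 14306 tested genes, and the median was -0.35. *Mki67*, a marker of cycling cells, was called lower, from 43.6 ± 3.28 to 19.1 ± 2.26 FPKM (SD, n = 3 each). The part of these genes, or of ATF4, in the levels of the 9 genes was not tested.

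**Figure D4:**
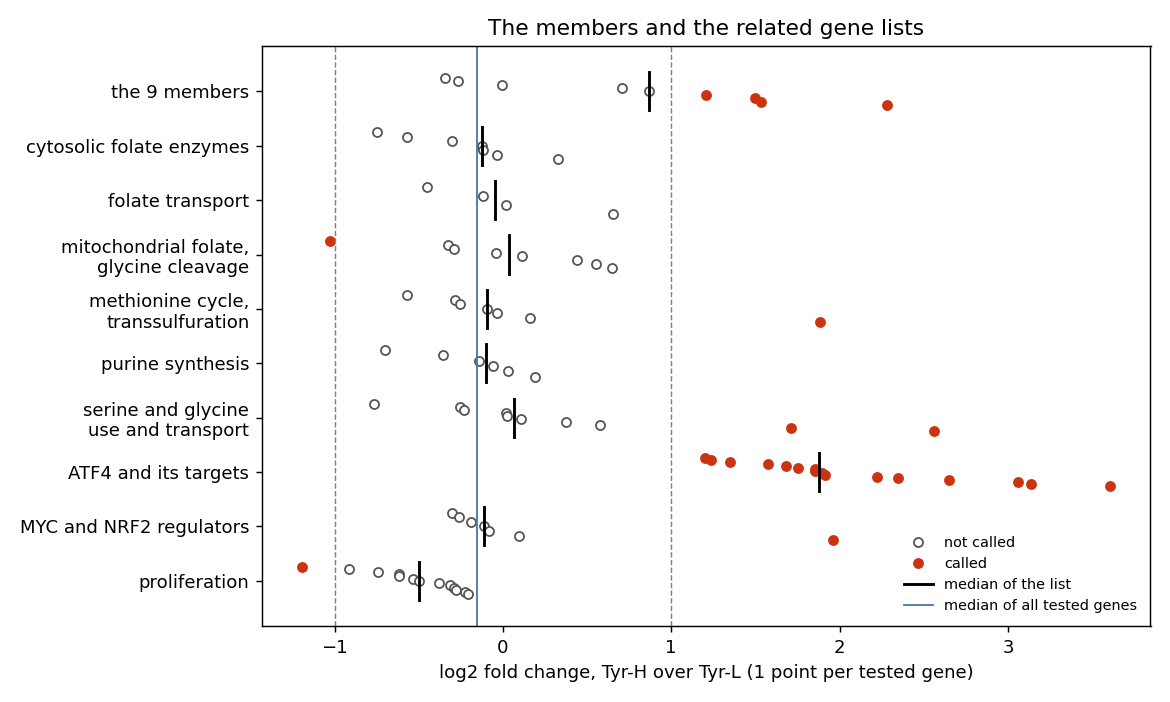
Log2 change of Tyr-H over Tyr-L cells, 1 point per tested gene, for the 9 genes and 9 related lists. Filled red points were called, black bars are list medians, and the blue line is the median of all tested genes (-0.15). The ATF4 list lies wholly above 1, and the proliferation list lies wholly below 0.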

How the data were processed

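RNA of Tyr-H and Tyr-L B16 cells was sequenced in 3 libraries of each. The authors deposited 1 table per library with FPKM values, which they had normalized for transcript length and mapped fragments. The submitters' processing notes name Trimmomatic, HISAT2, HISAT and the build GRCm38.p6, and the quantifier and annotation are not given in the sources used here. A gene missing from a table was set to 0.

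Groups and replicate numbers came from the sample labels. Genes averaging at least 0.1 FPKM were tested on log2(FPKM + 0.1) with limma 3.58.1 in R 4.3.3 (variance trend, Benjamini-Hochberg adjustment over 14336 genes), two-sided. Fold changes on this scale understate changes of low genes. A gene was called where the adjusted p did not exceed 0.05 and the log2 change reached 1 in either direction. The method was checked on simulated data with independent noise, equally scaled libraries and few changed genes, a simpler case than these libraries. Ratios of gene pairs used the same pseudocount and an exact permutation test. Depth was estimated from the smallest steps in the FPKM of genes with a single annotated transcript, is approximate, and covers counting error only. Coordinates, counted from 1, and overlaps came from GENCODE M21 (GRCm38), which held 20709 of the 20788 identifiers. The tables' own loci matched the annotated gene at both ends for some members only. *Psph*, *Shmt1*, *Shmt2* and *Aldh1l2* each had the same deposited locus as the opposite-strand gene named above for it. Promoters came from RefSeq (GRCm38.p6), whose starts can lie inside the GENCODE gene spans.

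The 9 genes and all lists were chosen with earlier results of these data known. Named are the 9 genes, their isozymes, overlapping genes, *Tyr*, and the called genes of each list with the largest changes, plus others of these lists chosen after their values were seen. The values of 1 list gene are not reported here. Alternatives were other pseudocounts, filters and scalings, no variance trend, the replicate number as a block, and each library left out in turn. Same-numbered libraries did not deviate together (correlations 0.02, 0.01 and -0.08), so the numbers were not taken as pairs. Figures were drawn with matplotlib 3.10.9, and tables were handled with scipy 1.17.1, pandas 2.3.3 and numpy 2.4.6 under Python 3.11.15.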

Additional observations from a re-analysis of the deposited data

How the results depend on the processing

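The 4 genes called higher stayed 4 under every alternative except median ratio scaling, which gave 5 with *Psat1*, and the 6 higher at the adjusted p alone stayed 6 except where *Mthfd1l* was added by median ratio scaling, which gave 7. The 2 lower at the adjusted p alone became 1 after median ratio scaling and 1 after quantile normalization, which centre all genes near 0, as *Shmt1* was lost. *Mthfd1l* changed sign to 0.15 after median ratio scaling and 0.075 after quantile normalization, and with single libraries left out it ranged from -0.0198 to 0.00607. The replicate number as a block left the counts at 4 called higher and 6 higher and 2 lower at the adjusted p alone, and gave 430 higher and 828 lower calls over all genes beside 425 and 829, though not every library correlated best with its own number. A pseudocount of 1 FPKM gave 185 higher and 203 lower calls over all genes, yet 4 of the 9 genes. Of all calls 33.9% were higher in the deposited values, 26.2% after rescaling to equal totals, 48.4% after median ratio scaling and 55.3% after quantile normalization. With a pseudocount of 1 FPKM the difference in the log2 ratio of *Aldh1l2* to *Shmt1* was 2.46 in place of 2.55, and without Tyr-H library 3 that of *Mthfd1l* to *Shmt1* was 0.19 in place of 0.26. The exact permutation test of 3 against 3 libraries cannot give a p under 0.1.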

Other observations

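Among genes that use one-carbon units, serine or glycine further along, 3 were called, all higher, in lists of 6, 7 and 10 tested genes, beside 2.96% of all tested genes called higher and 5.78% lower. Of the 6 purine synthesis genes tested none was called, and at the adjusted p alone (17.9% of all tested genes higher, 39.9% lower) *Atic*, which takes up the second formyl group, was higher (98.0 ± 2.77 to 112 ± 1.65 FPKM, SD, n = 3 each, log2 change 0.19), while *Pfas*, *Ppat* and *Paics* were lower with log2 changes of -0.70, -0.36 and -0.14. The increase of *Atic* did not pass the adjusted p after rescaling to equal totals, where 0 purine genes were higher, and after median ratio scaling 2 were higher and 2 lower. The median log2 change of this list was -0.10 and turned to 0.05 after median ratio scaling. Among 7 tested genes of the methionine cycle and transsulfuration (median -0.09, or 0.06 after median ratio scaling, with 3 lower at the adjusted p, or 1 after median ratio scaling and 2 after quantile normalization), *Cth*, which makes cysteine from cystathionine, was called higher in Tyr-H cells with 11.3, 12.1 and 12.3 FPKM in the Tyr-L and 42.9, 43.6 and 45.9 FPKM in the Tyr-H libraries (log2 change 1.88, adjusted p = 2.7e-08 from limma). *Cbs*, the step before it, was low in both groups (0.359 ± 0.169 and 0.389 ± 0.0184 FPKM, SD, n = 3 each). *Mat2a*, which makes the methyl donor S-adenosylmethionine, fell from 228 ± 11.1 to 153 ± 4.09 FPKM (SD, n = 3 each, log2 change -0.57).

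Among 10 tested genes of serine and glycine use and transport, 2 were called higher, and both are transporters. At the adjusted p alone 4 were higher and 2 lower, and after median ratio scaling 7 were higher and 1 lower, beside 3994 higher and 3865 lower of 14306 tested genes. The list's median was 0.07, and it was 0.22 after median ratio scaling and -0.03 after rescaling to equal totals. *Slc6a9*, a glycine transporter, rose from 2.59 ± 0.555 to 15.6 ± 1.15 FPKM and *Slc1a4*, a transporter of serine and other neutral amino acids, from 8.49 ± 1.56 to 27.7 ± 1.87 FPKM (SD, n = 3 each), with log2 changes of 2.56 and 1.71. *Sptlc2*, a subunit of the enzyme that joins serine to a fatty acyl group for sphingolipids, fell from 52.7 ± 2.46 to 30.9 ± 1.28 FPKM (SD, n = 3 each, log2 change -0.77), and its partner *Sptlc1* had a log2 change of -0.23.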
